A study of Homo sapiens with 12 samples.

Results

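The 38 genes described here are ATF4 and its known targets in the integrated stress response, with close partners. They were chosen by name as known members of the pathway. The rule itself used no measured value, but it was written with earlier results of these data known. All 38 were found by Ensembl identifier among the 20307 genes of the expression table, all are protein coding, and all had enough signal to be tested. They were set out by role: 7 genes of serine and one-carbon metabolism, 6 other amino acid enzymes, 6 tRNA ligase and tRNA export genes, 8 transcription factors, 5 feedback and stress genes, 3 secreted hormones, and 3 genes of transport and uptake. Messenger RNA was sequenced from Hep3B and Huh7, established human hepatocellular carcinoma cell lines. Hep3B cells received lenvatinib, an inhibitor of VEGF and FGF receptor kinases used in liver cancer, at 20 µM, WWL70, an inhibitor of the lipid hydrolase ABHD6, at 20 µM, or WWL70 at 20 µM with lenvatinib at a dose that the labels do not state, and were compared with control Hep3B. Huh7 cells that the labels call lenvatinib resistant were compared with control Huh7. Each of the 6 groups held 2 libraries, A1 and B1, and pairs of values below give A1 and then B1. The labels do not say how long cells were exposed, how the resistant cells were made, whether they were kept in drug, or whether they are 1 clone. Whether A1 and B1 were separate cultures is not stated. A p-value here rests on the spread between A1 and B1, pooled over the 6 groups, and the 2 libraries of a group may differ only technically.

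The integrated stress response starts when one of several kinases (PERK, GCN2, PKR or HRI) phosphorylates the translation factor eIF2α, which slows general protein synthesis while translation of the ATF4 mRNA goes up. ATF4 protein then binds, with C/EBP family partners, to C/EBP-ATF response elements in target genes for making and importing amino acids and for charging tRNAs. ATF4 is controlled largely at translation, so its mRNA level is not a measure of its activity. In liver cells the pathway also drives the circulating hormones FGF21 and GDF15.

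The sequences below are shown because the C/EBP-ATF response element is the kind of site that ATF4 is known to bind in its target genes. RefSeq promoters (GRCh38.p14, 250 bases before to 50 after each start) were matched for 31 of the 38 genes by symbol. PSPH, SHMT2, ALDH1L2, PYCR1, GPT2, NUPR1 and SLC7A11 had no entry. The core TGATGNAA, searched on both strands, was present in 6 of 31 windows (19.4%), against 3.62% of all 35116 promoters of the same length. The CRE motif TGACGTCA, which is its own reverse complement and does not overlap these cores, was present in 1 of 31 (3.23%), against 1.85% of all. The ER stress element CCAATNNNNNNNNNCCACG, on both strands, was in 0 of 31, against 0.0769% of all. A match is a description of letters and does not show binding. The 250 bases before the ASNS start (chr7:97872409-97872658, minus strand) hold the core, in capitals, beginning at base -68 from the start:

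ASNS: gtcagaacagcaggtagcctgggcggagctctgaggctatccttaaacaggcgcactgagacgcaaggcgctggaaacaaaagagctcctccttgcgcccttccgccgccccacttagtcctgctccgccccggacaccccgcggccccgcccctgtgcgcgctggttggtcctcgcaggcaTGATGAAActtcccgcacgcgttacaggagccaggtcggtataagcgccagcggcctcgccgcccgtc

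The other cores before a start are given with 10 bases on each side, on the strand of the gene, with the match in capitals. MTHFD1L (chr6:150866347-150866374, plus strand) and ATF3 (chr1:212565206-212565233, plus strand) carry it in the direction of the gene, at -129 and -191. CHAC1 (chr15:40953252-40953279, plus strand) and FGF21 (chr19:48755460-48755487, plus strand) carry it on the opposite strand, so that it reads TTGCATCA, at -209 and -54. The sixth core lies after the start of NARS1. The last line is the CRE of PPP1R15A (chr19:48872353-48872380, plus strand, at -58).

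MTHFD1L: ccgccggctcTGATGCAAtcgcgccggg
ATF3: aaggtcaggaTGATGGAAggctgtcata
CHAC1: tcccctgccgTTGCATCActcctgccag
FGF21: aacaccaggaTTGCATCAgggaggagga
PPP1R15A: cctctcttcgTGACGTCAgcacgccggg

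Levels are in TPM, a unit of transcript abundance that is scaled for transcript length and so allows levels of different genes to be set side by side. TPM does not record sequencing depth, and the depth is unknown. Fold changes are differences of log2(TPM + 1), a scale on which changes of low-level genes come out too small. They were fitted with limma over 13645 genes, and a gene is called where its Benjamini-Hochberg adjusted p over all of these is under 0.05. Both libraries of a group agreed closely in Hep3B controls (median difference over the 38 genes 0.0712 on the log2 scale) and with WWL70 (0.0975), and less so with lenvatinib (0.162), in Huh7 controls (0.163), in resistant cells (0.287) and with the combination (0.54). Library A1 of the combination stood apart. Its median TPM, taken over all genes, was 2.96, while combination B1 and both lenvatinib libraries had 5.91 to 6.92. Over all genes, the deviation of a library from its controls had a Spearman correlation with transcript length of -0.523 in combination A1, -0.341 in lenvatinib A1 and -0.297 in resistant A1, and of 0.00118 to 0.0625 in B1 of the same groups. Counts are therefore given with and without these 3 libraries, and no called member changed direction in any comparison when they were left out. For fits on fewer libraries or with other settings the share of all genes called is mostly not given. A count that moves in such a fit is therefore not a result about the 38 genes alone. As a check of the label, each of 10 hepatocyte markers was above 1 TPM in every library. Of 6 immune markers the leukocyte genes PTPRC and CD3E stayed under 1 TPM in every library, while CD14, CD68 and LYZ were present in all, with LYZ at 67.8 and 68.1 TPM in resistant and 549 and 516 TPM in control Huh7. Fewer cells with high levels and less RNA per cell cannot be told apart in such bulk samples.

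With lenvatinib most of the pathway lay lower in Hep3B. The 38 genes together took 0.446% and 0.437% of TPM in lenvatinib libraries, against 0.748% and 0.760% in control libraries. The 10 genes that fell past the threshold were PSAT1, SHMT2, MTHFD2, ASNS, PYCR1, GARS1, WARS1, DDIT4, TRIB3 and STC2, and 0 rose, where 1.1% of all tested genes fell and 1.38% rose. In 36 of 38 genes both lenvatinib libraries lay under both control libraries, as they did in 34.8% of all genes, and in 1, PSPH, both lay above, as in 24.2%. The median log2 change was -0.82 over the 38 genes and -0.07 over all genes tested. PSPH and PPP1R15A were the exceptions in direction, and PPP1R15A turned lower without the A1 libraries named above. Alongside, 10 hepatocyte markers, led by APOA1, took 4.4% and 4.4% of TPM with lenvatinib, against 2.18% and 2.07% in control cells, and 6 fibroblast markers summed to 10.04 and 14.3 TPM, against 24.4 and 22.1 TPM, with DCN under 1 TPM in every library. The 6 immune markers summed to 90.7 and 104.5 TPM with lenvatinib, against 128 and 151 TPM in control cells. Of these LYZ stood at 7.37 and 8.35 TPM with lenvatinib, against 53.6 and 59.0 TPM in control cells. CD68 overlapped, at 78.6 and 93.7 TPM with lenvatinib, against 69.9 and 87.0 TPM in control cells. The part of these markers in the result was not tested.

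**Figure D1:**
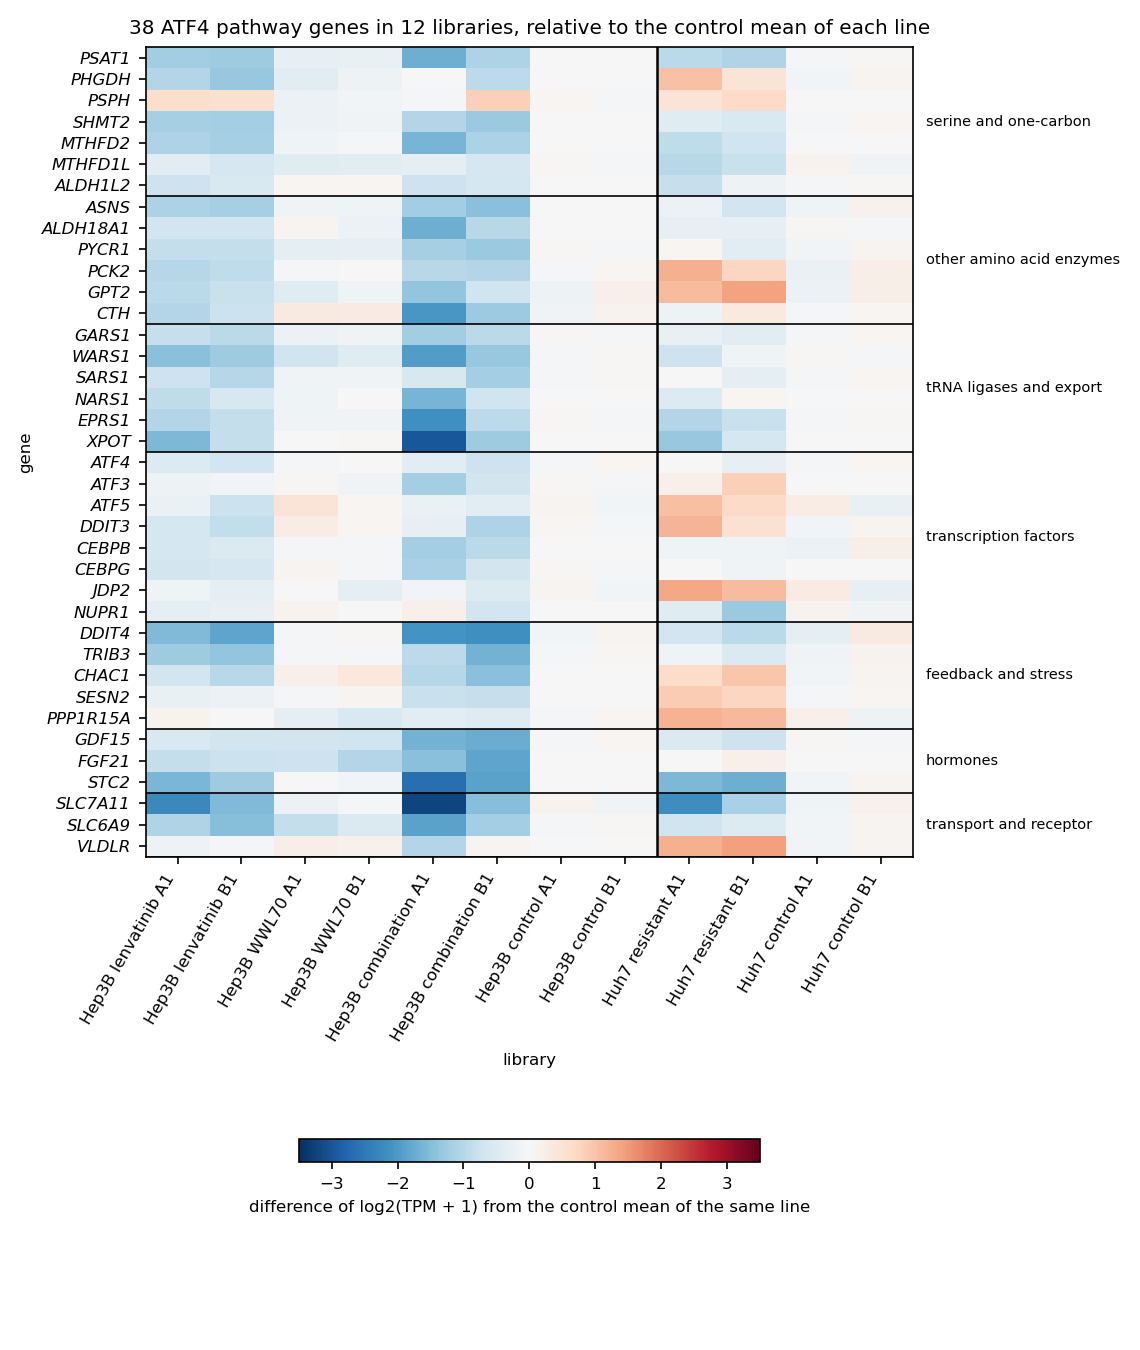
Difference of log2(TPM + 1) of each gene (rows, by role) in each library (columns) from the control mean of the same cell line, with blue lower and red higher. Most rows were blue in the lenvatinib and combination libraries of Hep3B and near white with WWL70, while resistant Huh7 libraries held rows of both colours.

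The number of lenvatinib calls changed with the libraries in the fit. How many of all genes were called in each of these smaller fits is not given here. Leaving out either Hep3B control library or either lenvatinib library left 0 calls with limma, which then had a single library in that group, although 31 genes had an unadjusted p under 0.05 with all libraries, as did 13.4% of all genes. Without either WWL70 library 6 were called, and without either Huh7 control library 5. Without either combination library, or without all of that group, 28 genes were called, and the 10 were among them. Without the A1 libraries of the lenvatinib, combination and resistant groups 28 were also called (27 lower, 1 higher), again with the 10 among them.

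Serine and one-carbon enzymes were mostly lower with lenvatinib. PSAT1 (chromosome 9, 78297143 to 78330093; gene positions are those of GENCODE 29 on GRCh38), the aminotransferase that makes phosphoserine, stood at 285 and 280.4 TPM with lenvatinib, against 667 and 659 TPM in control cells (log2 -1.23, SE 0.19, adjusted p = 0.0177, limma). SHMT2, which converts serine to glycine in mitochondria, stood at 268 and 264 TPM with lenvatinib, against 595 and 609 TPM in control cells (log2 -1.17, SE 0.14, adjusted p = 0.00523, limma). MTHFD2, the next mitochondrial folate enzyme, stood at 123 and 117 TPM, against 259 and 267 TPM in control cells (log2 -1.12, SE 0.18, adjusted p = 0.0202, limma). In each of these 3 genes the lenvatinib libraries lay close together and far under both controls. PHGDH (chromosome 1, 119648411 to 119744226), which catalyses the first step of serine synthesis, held 139 and 113 TPM with lenvatinib, against 280.2 and 289 TPM in control cells, without passing the threshold (log2 -1.18, SE 0.30, adjusted p = 0.0897, limma). PSPH, the last enzyme of the same pathway, went the other way, at 378 and 364 TPM with lenvatinib, against 259 and 238 TPM in control cells (adjusted p = 0.368, limma). The groups did not overlap for PSPH, but near-identical pseudogene copies of it exist and the counting of shared reads is not given, so its level is uncertain. MTHFD1L (log2 -0.47) and ALDH1L2 (log2 -0.62), 2 further mitochondrial folate enzymes, did not pass.

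With WWL70 alone PSAT1 stood at 538 and 549 TPM, SHMT2 at 526 and 556 TPM and MTHFD2 at 242 and 253 TPM, none of them called. With the combination PSAT1 stood at 201 and 313 TPM (against control, log2 -1.40, SE 0.19, adjusted p = 0.00417, limma). SHMT2 stood at 295 and 244 TPM (log2 -1.16, SE 0.14, adjusted p = 0.00243, limma) and MTHFD2 at 84.1 and 121 TPM (log2 -1.37, SE 0.18, adjusted p = 0.00352, limma). These combination levels of PSAT1, SHMT2 and MTHFD2 lay under both control libraries and near those with lenvatinib alone. PHGDH had 282 and 149.98 TPM in the combination libraries, so that A1 reached a control level and B1 did not, and was not called (adjusted p = 0.279, limma).

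In resistant Huh7 4 serine and one-carbon genes fell, where 6.63% of all genes fell, but not PHGDH and PSPH. PSAT1 fell, at 207 and 189 TPM in resistant cells, against 386 and 408 TPM in control Huh7 (log2 -0.999, SE 0.19, adjusted p = 0.00711, limma). MTHFD1L also fell, at 11.8 and 13.6 TPM in resistant cells, against 26.4 and 22.04 TPM in control Huh7 (log2 -0.88, SE 0.20, adjusted p = 0.0152, limma), as did MTHFD2 (33.7 and 39.2 TPM in resistant cells, against 64.8 and 62.6 TPM in control Huh7) and SHMT2 (255 and 236 TPM in resistant cells, against 325 and 356 TPM in control Huh7). PHGDH instead stood at 433 and 290.0 TPM in resistant cells, against 198 and 224 TPM in control Huh7, a difference that did not pass (log2 0.75, adjusted p = 0.119, limma). PSPH stood at 219 and 258 TPM in resistant cells, against 164 and 159 TPM in control Huh7 (adjusted p = 0.172, limma). Both resistant libraries were above both controls for PHGDH and PSPH and under both controls for the 4 genes that fell. Over all genes 31% lay above and 36.7% under both controls in this way.

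The mRNA of the asparagine synthesis enzyme was also lower in Hep3B with lenvatinib and with the combination. ASNS (chromosome 7, 97852118 to 97872542), which makes asparagine from aspartate and glutamine, stood at 159 and 154 TPM with lenvatinib (log2 -1.14, SE 0.19, adjusted p = 0.0208, limma), 319.7 and 312 TPM with WWL70, 149 and 126 TPM with the combination (log2 -1.33, SE 0.19, adjusted p = 0.00493, limma) and 349 and 344 TPM in control cells. The lenvatinib and combination libraries of ASNS all lay far below the WWL70 and control libraries. In Huh7 it stood at 87.6 and 62.8 TPM in resistant cells, against 89.5 and 112 TPM in control cells (adjusted p = 0.162, limma), and both resistant libraries were lower.

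The remaining amino acid enzymes lay lower too, and all fell with the combination. PYCR1, of proline synthesis, fell with lenvatinib, at 85.1 and 85.4 TPM, against 157 and 149 TPM in control cells (log2 -0.83, SE 0.17, adjusted p = 0.0434, limma). ALDH18A1 of proline synthesis, PCK2, the mitochondrial enzyme that makes phosphoenolpyruvate, GPT2, the mitochondrial alanine aminotransferase, and CTH, which makes cysteine, had log2 changes of -0.67, -0.94, -0.85 and -0.89 with lenvatinib without passing. With the combination all 6 enzymes of this role fell, where 6.41% of all genes fell, with log2 changes between -1.65 (CTH) and -0.997 (PCK2). CTH stood at 1.83 and 3.79 TPM with the combination, against 9.71 and 11.5 TPM in control cells, the lowest enzyme of this role in level as well as in change. ALDH18A1 stood at 31.0 and 51.9 TPM with the combination, against 102 and 106 TPM in control cells, and PYCR1 at 67.1 and 61.5 TPM, against 157 and 149 TPM. PCK2 and GPT2 had changes of opposite sign with lenvatinib in Hep3B and in resistant Huh7, and that difference passed the test. PCK2 stood at 74.1 and 79.2 TPM with lenvatinib, against 142 and 155 TPM in control Hep3B. In Huh7 PCK2 rose, at 97.8 and 68.7 TPM in resistant cells, against 34.0 and 47.8 TPM in control cells (log2 1.005, SE 0.21, adjusted p = 0.0107, limma). GPT2 stood at 39.2 and 44.2 TPM with lenvatinib, against 66.6 and 86.6 TPM in control Hep3B. In Huh7 GPT2 rose, at 55.6 and 68.2 TPM in resistant cells, against 21.7 and 29.1 TPM in control cells (log2 1.26, SE 0.27, adjusted p = 0.0117, limma). The groups did not overlap in any of these 4 comparisons. Over all genes 34.8% lay lower with lenvatinib and 31% higher in resistance without overlap.

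**Figure D2:**
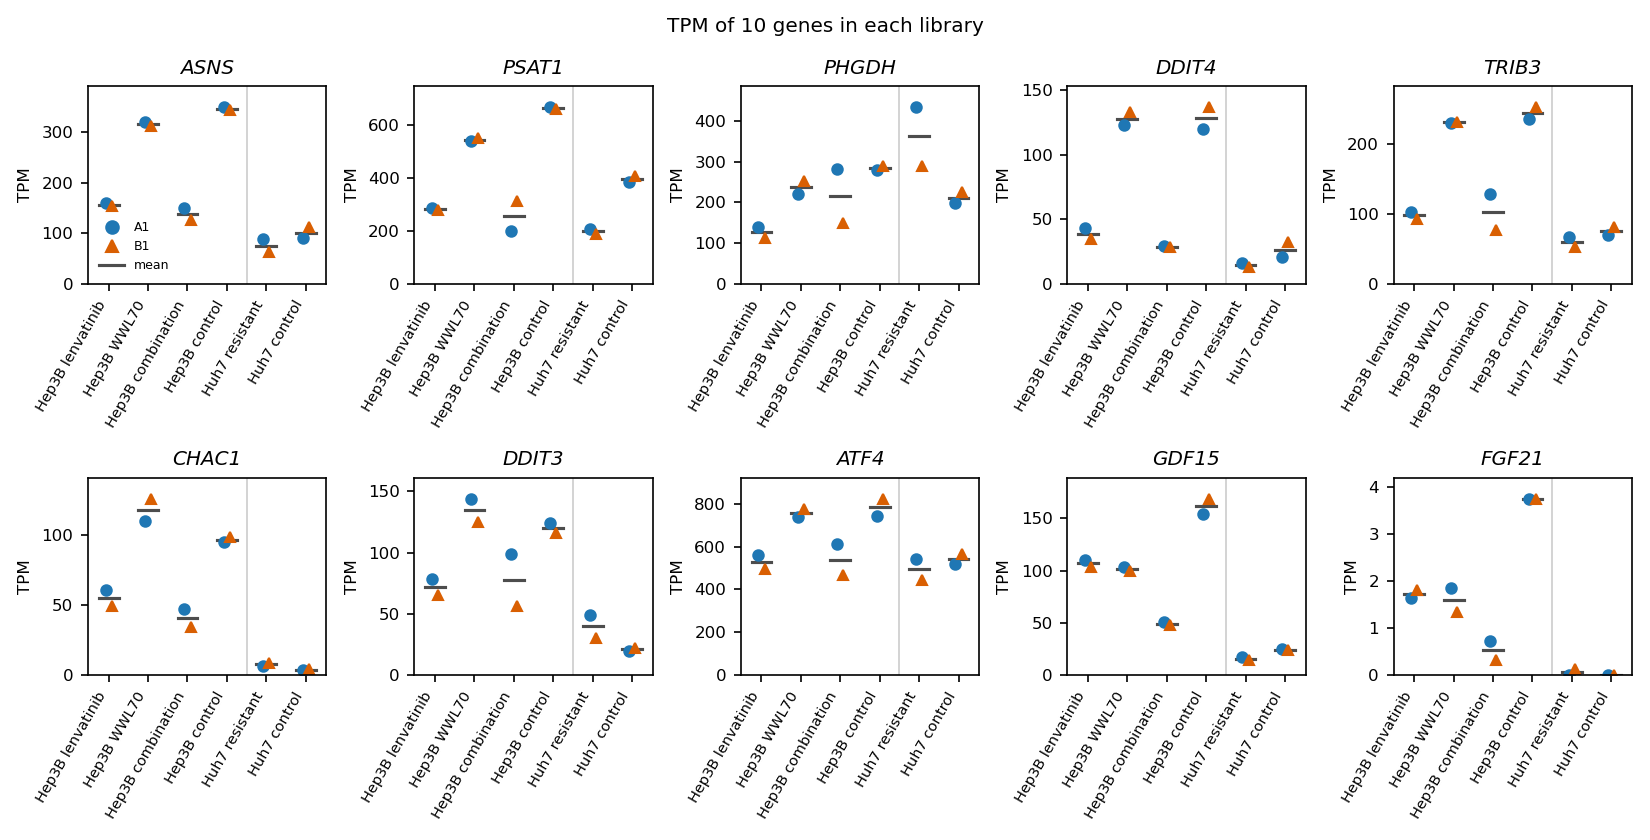
TPM (linear axis from 0) of 10 genes in each library, with circles for A1, triangles for B1 and a bar for the mean of the 2. ASNS, PSAT1, DDIT4 and TRIB3 were low in the lenvatinib and combination groups of Hep3B and close to control with WWL70, whereas GDF15 and FGF21 were also lower with WWL70 alone.

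Of the tRNA genes 2 fell with lenvatinib and all 6 with the combination, where 1.1% and 6.41% of all genes fell. GARS1, the glycyl-tRNA ligase, fell with lenvatinib, at 351 and 322 TPM, against 637 and 602 TPM in control cells (log2 -0.88, SE 0.14, adjusted p = 0.0202, limma). WARS1, the tryptophanyl ligase, which interferon gamma also induces, fell too, at 80.5 and 93.5 TPM with lenvatinib, against 218 and 228 TPM in control cells (log2 -1.35, SE 0.25, adjusted p = 0.0306, limma). Each of the 6 genes was lower in both lenvatinib libraries than in both controls, as were 34.8% of all genes. The log2 changes of the 6 ran from -1.35 (WARS1) to -0.73 (NARS1), and SARS1, NARS1, EPRS1 and XPOT did not pass. With the combination all 6 fell, XPOT, which carries tRNA out of the nucleus, by the most (25.3 and 84.6 TPM with the combination, against 204 and 202 TPM in control cells). XPOT and EPRS1 (53.1 and 127 TPM with the combination, against 246 and 235 TPM in control cells) were much lower in A1 than in B1. SARS1, the seryl ligase, stood at 216 and 139 TPM with the combination, against 311 and 327 TPM in control cells. NARS1, the asparaginyl ligase, stood at 88.9 and 170.3 TPM, against 281 and 277 TPM in control cells, and GARS1 at 265 and 319 TPM. For these 3 genes both combination libraries lay under both controls, as in 40.5% of all genes. With WWL70 alone the log2 changes of the 6 genes lay between -0.56 (WARS1) and 0.03 (XPOT). In resistant Huh7 0 of these 6 genes passed with limma and 1 had an unadjusted p under 0.05, as did 31.1% of all genes, with log2 changes between -0.98 (XPOT) and -0.18 (SARS1).

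The other tRNA ligases had smaller median changes with lenvatinib. Among 18 cytosolic ligases and partner proteins outside the 38 genes the median log2 change was -0.43 and 0 were called with limma, with 9 at an unadjusted p under 0.05, where 13.4% of all genes were. Among 17 mitochondrial ligases the median was -0.21 and 0 were called, with 1 at an unadjusted p under 0.05. The median was -0.90 in the 6 described above. With the combination 9 of the 18 fell, where 6.41% of all genes fell, including YARS1 (86.2 TPM on average with the combination, against 173 TPM in control cells), CARS1 and AARS1, and of the 17 mitochondrial ligases 1 rose (CARS2) and 1 fell (TARS2). In resistant Huh7 8 of the 18 fell, where 6.63% of all genes fell, with a median of -0.72. They included VARS1 (44.5 TPM on average in resistant cells, against 96.5 TPM in control Huh7), FARSB and YARS1. Of the 17 mitochondrial ligases MARS2 and NARS2 fell. The difference between these lists was not tested.

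The transcription factors had a median log2 change of -0.53 with lenvatinib and -0.61 with the combination. ATF4 itself (chromosome 22, 39519695 to 39522685) stood at 559.6 and 494 TPM with lenvatinib (adjusted p = 0.159, limma), 740.2 and 776 TPM with WWL70, 610.1 and 469.8 TPM with the combination (adjusted p = 0.0826, limma) and 743 and 824 TPM in control Hep3B. Its lenvatinib and combination libraries were below both controls, without a call. In Huh7 ATF4 stood at 544 and 446 TPM in resistant cells, against 517 and 567 TPM in control cells, and the groups overlapped. DDIT3, the stress factor CHOP, stood at 78.6 and 65.8 TPM with lenvatinib, 144 and 125 TPM with WWL70, 98.7 and 56.4 TPM with the combination and 124 and 116 TPM in control Hep3B, none called. In Huh7 it stood at 49.4 and 30.6 TPM in resistant cells, against 19.7 and 22.3 TPM in control cells (adjusted p = 0.0756, limma), without overlap.

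With lenvatinib 0 of the 8 factors were called by limma, and 4 had an unadjusted p under 0.05, as did 13.4% of all genes. CEBPB and CEBPG, which pair with ATF4, fell with the combination. CEBPB stood at 16.8 and 20.3 TPM, against 39.5 and 39.9 TPM in control cells (log2 -1.06, SE 0.19, adjusted p = 0.0132, limma), and CEBPG at 62.6 and 88.6 TPM, against 143 and 135 TPM in control cells (log2 -0.89, SE 0.18, adjusted p = 0.0197, limma). JDP2, a repressor of the same bZIP family, rose in resistant Huh7, at 27.6 and 23.2 TPM, against 12.6 and 8.14 TPM in control Huh7 (log2 1.24, SE 0.26, adjusted p = 0.00976, limma). ATF3, a stress-induced relative of ATF4, was not called in any treatment, at 37.2 and 39.7 TPM with lenvatinib, 17.8 and 26.7 TPM with the combination and 42.9 and 41.2 TPM in control Hep3B. ATF5, another relative translated under stress, stood at 27.1 and 20.4 TPM in resistant Huh7, against 15.1 and 10.3 TPM in control Huh7 (adjusted p = 0.0601, limma), and at 19.7 and 13.6 TPM with lenvatinib, against 25.01 and 22.04 TPM in control Hep3B. NUPR1, a stress-induced chromatin protein, separated the lines more than any treatment, at 691 and 703 TPM in control Hep3B, against 8.28 and 6.79 TPM in control Huh7.

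Among the feedback and stress genes DDIT4 (chromosome 10, 72273920 to 72276036), which restrains the growth kinase complex mTORC1, fell in both lenvatinib-treated groups of Hep3B and in resistant Huh7. It stood at 43.2 and 34.6 TPM with lenvatinib (log2 -1.70, SE 0.23, adjusted p = 0.00876, limma), 123 and 133 TPM with WWL70, 29.2 and 28.3 TPM with the combination (log2 -2.12, SE 0.23, adjusted p = 0.00148, limma) and 119.6 and 137 TPM in control Hep3B. The WWL70 and control values overlapped, and the other groups lay far below. In Huh7 it stood at 15.99 and 12.9 TPM in resistant cells, against 20.7 and 32.2 TPM in control cells (adjusted p = 0.0416, limma). TRIB3, a pseudokinase that feeds back on ATF4, fell with lenvatinib, at 103 and 93.1 TPM, against 235 and 253 TPM in control Hep3B (log2 -1.31, SE 0.24, adjusted p = 0.0261, limma). It held 231 and 232 TPM with WWL70 and 128 and 77.4 TPM with the combination, and in Huh7 66.7 and 52.1 TPM in resistant cells, against 69.1 and 80.8 TPM in control cells.

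CHAC1, which degrades glutathione, stood at 61.0 and 49.0 TPM with lenvatinib (adjusted p = 0.126, limma), 109.9 and 126 TPM with WWL70, 47.4 and 34.2 TPM with the combination (log2 -1.24, SE 0.22, adjusted p = 0.0132, limma) and 94.9 and 98.2 TPM in control Hep3B. Both WWL70 libraries were above the controls and both libraries of the other treatments below. In Huh7 CHAC1 rose at a far lower level, at 6.84 and 8.76 TPM in resistant cells, against 3.64 and 4.38 TPM in control cells (adjusted p = 0.0357, limma). PPP1R15A (chromosome 19, 48872392 to 48876057), the stress-induced subunit that leads a phosphatase to eIF2α, had 74.0 and 66.3 TPM with lenvatinib, 53.4 and 46.1 TPM with WWL70, 52.4 and 49.5 TPM with the combination and 64.8 and 70.4 TPM in control Hep3B. Lenvatinib and control libraries overlapped for it. In Huh7 PPP1R15A rose, at 78.2 and 72.9 TPM in resistant cells, against 37.1 and 28.9 TPM in control cells (log2 1.18, SE 0.17, adjusted p = 0.00171, limma). SESN2, a stress protein that also restrains mTORC1, rose in resistant Huh7, at 21.9 and 19.8 TPM, against 10.9 and 12.03 TPM in control Huh7 (log2 0.81, SE 0.17, adjusted p = 0.0102, limma), and fell with the combination in Hep3B (log2 -0.79, adjusted p = 0.0256, limma).

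The hormone genes GDF15 and FGF21 had the smallest p of the 38 genes with WWL70, without passing. GDF15 (chromosome 19, 18374731 to 18389176), a hormone that limits appetite, stood at 110.4 and 104 TPM with lenvatinib, 104 and 99.4 TPM with WWL70, 50.4 and 47.8 TPM with the combination and 154 and 169 TPM in control Hep3B. The fall with the combination passed (log2 -1.70, SE 0.15, adjusted p = 0.000595, limma), and those with lenvatinib (adjusted p = 0.104) and WWL70 (adjusted p = 0.862) did not. Both single compounds gave GDF15 levels between control and the combination. FGF21, a hormone of fasting metabolism, stood at 1.65 and 1.82 TPM with lenvatinib, 1.85 and 1.35 TPM with WWL70, 0.730 and 0.333 TPM with the combination and 3.75 and 3.76 TPM in control Hep3B. It is a low-abundance mRNA, its fall passed with the combination (log2 -1.65, SE 0.18, adjusted p = 0.0014, limma), and with WWL70 it did not (adjusted p = 0.54, limma). In Huh7 FGF21 is listed at 0 in both control libraries and at 0 and 0.140 TPM in resistant cells.

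STC2, stanniocalcin 2, a secreted glycoprotein, stayed near control with WWL70 (log2 -0.05). It stood at 17.4 and 22.5 TPM with lenvatinib (log2 -1.41, SE 0.26, adjusted p = 0.029, limma), 54.2 and 51.2 TPM with WWL70, 7.88 and 14.2 TPM with the combination (log2 -2.26, SE 0.26, adjusted p = 0.00197, limma) and 55.2 and 53.7 TPM in control Hep3B. In Huh7 STC2 fell, at 12.2 and 11.1 TPM in resistant cells, against 35.8 and 40.9 TPM in control cells (log2 -1.64, SE 0.26, adjusted p = 0.00257, limma). GDF15 in Huh7 stood at 17.1 and 14.3 TPM in resistant cells, against 25.1 and 23.9 TPM in control cells (adjusted p = 0.0232, limma). For both genes the Huh7 groups did not overlap.

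Among the transport genes SLC7A11 (chromosome 4, 138164097 to 138242349), which imports cystine for glutathione, had the largest estimated falls of the 38 genes with lenvatinib, with the combination and in resistance, but also a wide spread. It stood at 4.95 and 8.73 TPM with lenvatinib (log2 -1.90, adjusted p = 0.141, limma), 23.7 and 26.7 TPM with WWL70, 2.03 and 9.15 TPM with the combination (log2 -2.35, adjusted p = 0.0331, limma) and 29.7 and 25.1 TPM in control Hep3B. In Huh7 it stood at 4.29 and 9.81 TPM in resistant cells, against 20.5 and 25.2 TPM in control cells (adjusted p = 0.0674, limma). In the lenvatinib, combination and resistant groups A1 was the lower library, and at 9645 bases its longest transcript was the longest of the 38 genes. SLC6A9, a glycine transporter, fell with the combination, at 2.73 and 4.99 TPM, against 12.2 and 13.2 TPM in control cells (adjusted p = 0.0151, limma), and held 6.64 and 8.73 TPM with WWL70. VLDLR, a lipoprotein receptor, rose in resistant Huh7 (23.9 and 27.2 TPM, against 8.75 and 10.3 TPM in control Huh7, adjusted p = 0.0204, limma).

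**Figure D3:**
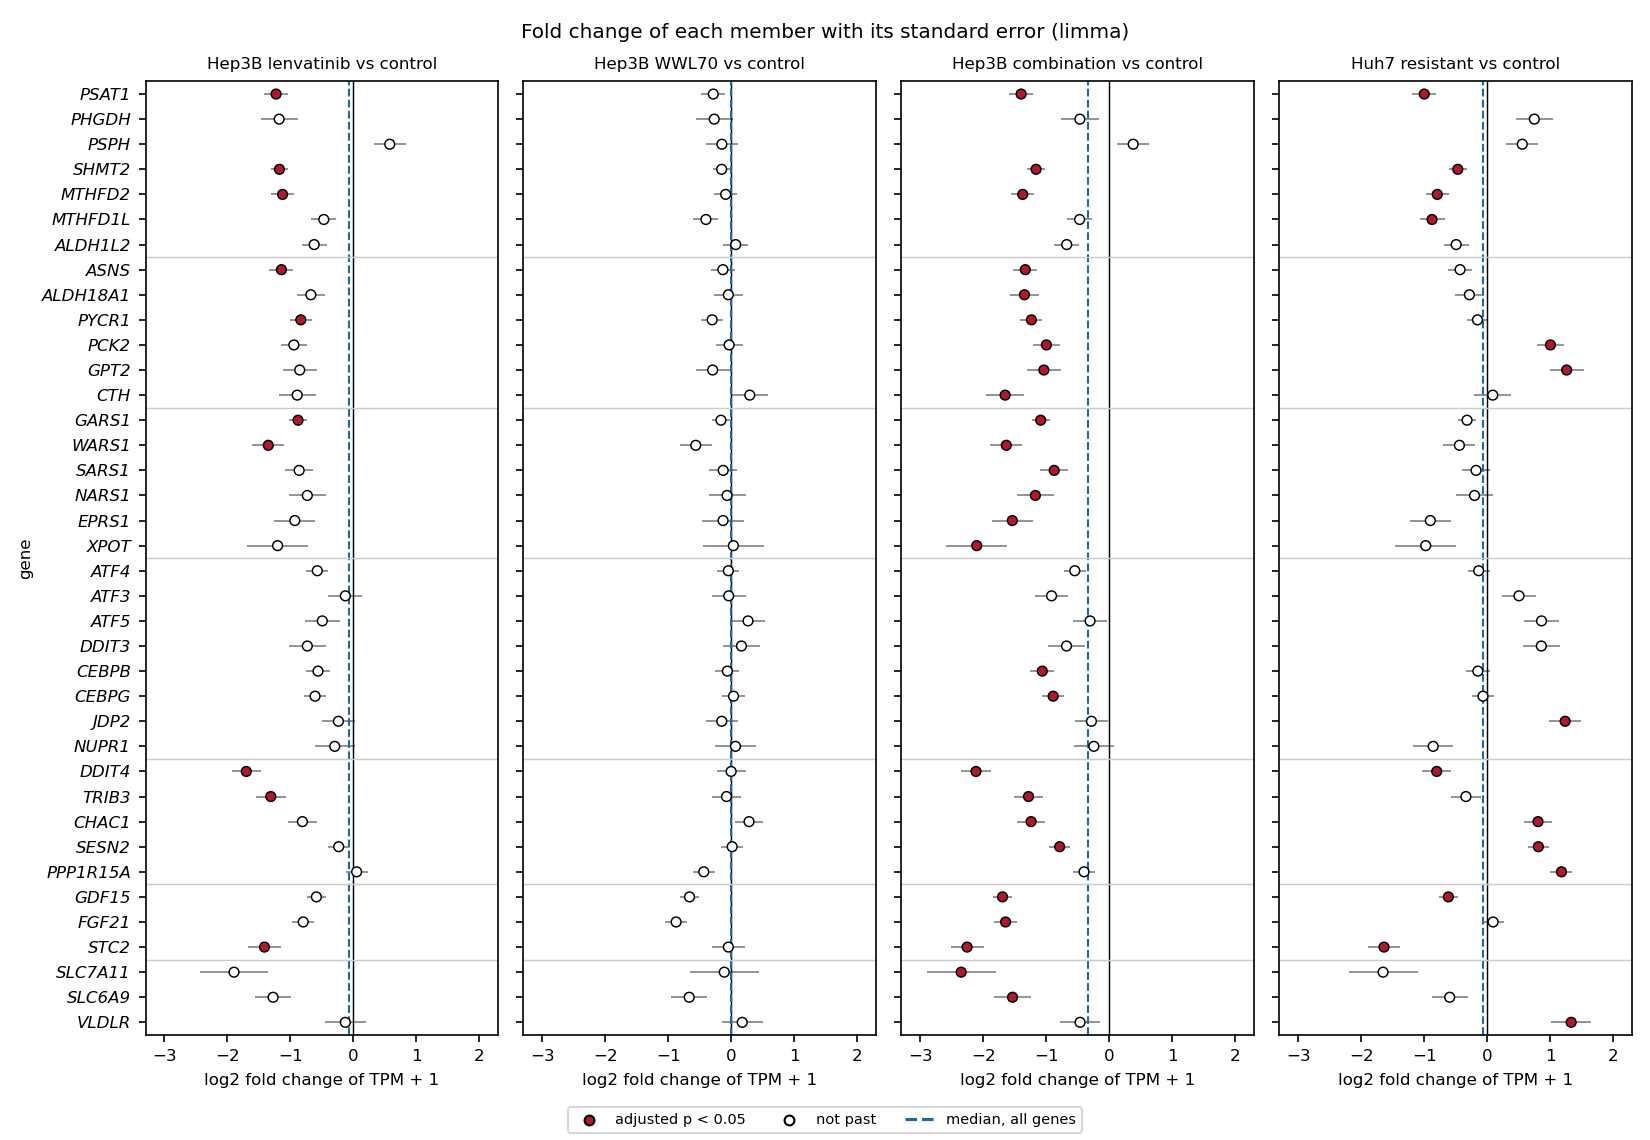
Log2 fold change of TPM + 1 with its standard error (limma) for each of the 38 genes in 4 comparisons, filled where the adjusted p was under 0.05. The dashed line is the median of all 13645 tested genes, which lay at -0.34 for the combination and between -0.07 and -0.01 elsewhere. In Hep3B all called genes lay left of 0, and in resistant Huh7 7 lay on each side.

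With WWL70 alone most of the 38 genes lay near control, and together they took 0.687% and 0.700% of TPM, against 0.748% and 0.760% in control libraries. With limma 0 were called, where 0.0147% of all genes were, and 4 had an unadjusted p under 0.05, against 2.87% of all genes. The 4 were SLC6A9, FGF21 (log2 -0.88, SE 0.18, adjusted p = 0.54, limma), GDF15 (log2 -0.66, SE 0.15, adjusted p = 0.862, limma) and PPP1R15A (log2 -0.44, SE 0.17, adjusted p = 1, limma). Both WWL70 libraries lay under both controls in 18 genes and above both in 6, as they did in 26.3% and 21.6% of all genes. The median log2 change was -0.08, against -0.01 over all genes. Because the spread was pooled with the far more variable combination libraries, a gene that was not called is not shown to be unchanged. With limma's array weights 3 of the 38 genes were called lower, and without the 3 A1 libraries 1 was.

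With both compounds most of the pathway fell in Hep3B, and the 38 genes took 0.417% and 0.402% of TPM, against 0.748% and 0.760% in control libraries. Of the 38 genes 26 fell and 0 rose, where 6.41% of all genes fell and 2.44% rose. The 26 were all 6 of the amino acid enzymes, all 6 tRNA genes, all 3 hormones, 4 of 5 feedback and stress genes, 3 of 7 serine and one-carbon genes, 2 of 3 transport genes and 2 of 8 transcription factors. In 34 genes both combination libraries lay under both controls, as in 40.5% of all genes. The median log2 change was -1.13, against -0.34 over all genes. With median-ratio scaling, which moves the median of all genes to 0, the median of the 38 genes was -0.69 and 14 fell and 1 rose, and the split over all genes was 555 higher and 596 lower in place of 333 and 875. None of the 26 changed direction with that scaling, while ATF5, JDP2, NUPR1 and PPP1R15A did. Without combination A1 27 genes were called, and without all 3 A1 libraries 33, of which 25 were among the 26. Without Hep3B control A1 or B1 7 or 9 were called, and with array weights, which gave combination A1 a weight of 0.102, 3 were. The hepatocyte markers took 5.79% and 6.33% of TPM with the combination, against 2.18% and 2.07% in control cells, and the fibroblast markers summed to 5.88 and 13.8 TPM, against 24.4 and 22.1 TPM. The immune markers summed to 51.2 and 79.7 TPM with the combination, against 128 and 151 TPM in control cells. Their part in the result was not tested.

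The combination was also set against each single compound, although its lenvatinib dose is not stated and may differ from that of lenvatinib alone. Against WWL70, 22 genes fell and 0 rose, where 5.52% of all genes fell and 2.38% rose, and in 32 genes both combination libraries were the lower, as in 39.4% of all genes. The largest falls of the 8 with the smallest adjusted p were those of STC2 (log2 -2.21, SE 0.26, adjusted p = 0.0027, limma) and DDIT4 (log2 -2.11, SE 0.23, adjusted p = 0.0019, limma), and CTH stood at 1.83 and 3.79 TPM with the combination, against 13.3 and 13.1 TPM with WWL70 (log2 -1.95, SE 0.30, adjusted p = 0.00779, limma). The others of the 8 were SHMT2, MTHFD2, CHAC1, GDF15 and GARS1, with log2 changes between -1.52 (CHAC1) and -0.92 (GARS1). Leaving out either WWL70 library left 2 calls, and array weights left 0, while without the 3 A1 libraries 31 genes were called, with all 22 among them. Against lenvatinib, 0 of the 38 genes were called with limma, where 0.022% of all genes were, and 11 had an unadjusted p under 0.05, against 11.1% of all genes. Both combination libraries were lower in 15 genes, as in 23.4% of all genes, and under median-ratio scaling 13 of the 38 genes changed sign in this comparison. GDF15 came nearest (log2 -1.11, SE 0.15, adjusted p = 0.0708, limma), with both combination libraries under both lenvatinib libraries, followed by FGF21 (adjusted p = 0.203) and SESN2 (adjusted p = 0.361). Without combination B1, which left A1 to stand for the group, 20 genes were called. Without the 3 A1 libraries 1 was.

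The interaction asked whether the change with both compounds differed from the sum of the single changes. With limma 0 of 38 genes were called, where 0.00733% of all genes were, and 3 had an unadjusted p under 0.05, against 5.12% of all genes. These were CTH (log2 -1.05, SE 0.42, adjusted p = 0.766, limma), SESN2 (log2 -0.57, SE 0.24, adjusted p = 0.766, limma) and PHGDH (log2 0.98, SE 0.42, adjusted p = 0.766, limma). The median SE of the 2-group fold changes was 0.29 over all genes and that of this 4-group contrast is wider, so smaller departures could not be resolved. Without combination B1 11 genes were called, and without the 3 A1 libraries 0.

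Resistant Huh7 cells showed no common shift of the pathway. Of the 38 genes 7 rose and 7 fell, where 12.3% of all genes rose and 6.63% fell, and the median log2 change was -0.19, against -0.06 over all genes. At an unadjusted p under 0.05 there were 21 of the 38, with 31.1% of all genes. The 7 that rose were PCK2, GPT2, JDP2, CHAC1, SESN2, PPP1R15A and VLDLR. The 7 that fell were PSAT1, SHMT2, MTHFD2, MTHFD1L, DDIT4, GDF15 and STC2. Both resistant libraries lay above both controls in 12 genes and under both in 19, as in 31% and 36.7% of all genes. Together the 38 genes took 0.323% and 0.298% of TPM in resistant cells, against 0.333% and 0.356% in control Huh7. Without Huh7 control A1 or B1 5 or 4 genes were called, without resistant A1 or B1 6 or 9, and without combination A1 or B1 24 or 23. Without the 3 A1 libraries 28 were called (11 higher, 17 lower), with all 14 among them. The 6 fibroblast markers summed to 40.8 and 51.2 TPM in resistant cells, against 20.5 and 21.2 TPM in control Huh7, with 0 or 1 of them at 0 in each library, and 10 hepatocyte markers to 6.26% and 5.53% of TPM, against 3.69% and 3.86%. The 6 immune markers summed to 103 and 98.2 TPM in resistant cells, against 557 and 529.7 TPM in control Huh7. In the controls nearly all of it was LYZ. CD68 went the other way, at 32.7 and 27.1 TPM in resistant cells, against 6.27 and 10.8 TPM in control Huh7. The part of these markers in the result was not tested.

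The change with lenvatinib in Hep3B and the resistant state in Huh7 have separate controls, so their directions can be set side by side. Of the 10 genes that fell with lenvatinib, 5 (50%) also fell in resistant cells, and these were 71.4% of the 7 that fell there: PSAT1, SHMT2, MTHFD2, DDIT4 and STC2. Over all tested genes 51 of the 150 that fell with lenvatinib (34%) also fell in resistant cells, and these were 5.64% of the 905 that fell there. None of the 10 rose in resistant cells, while 10% of the 150 did. No test was made of these overlaps. In estimate, 24 genes were lower in both, 2 higher in both (PSPH and PPP1R15A) and 12 lower with lenvatinib and higher in resistance. FGF21 is among the 12 only through 0.140 TPM in resistant B1, with 0 in resistant A1 and in both Huh7 controls. PPP1R15A turned lower with lenvatinib without the 3 A1 libraries. By a test of the difference itself 7 genes had a higher change in resistance than with lenvatinib and 0 a lower one (limma), where 5.08% of all genes were higher and 1.22% lower, and these were PHGDH, PCK2, GPT2, JDP2, CHAC1, SESN2 and PPP1R15A. Without the 3 A1 libraries 23 genes were called (22 higher, 1 lower). The cell line differs between the 2 comparisons, and dose and exposure, which the labels do not state for resistant cells, may differ too. Their parts cannot be told apart.

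Among control cells the pathway stood higher in Hep3B than in Huh7. The 38 genes took 0.748% and 0.760% of TPM in control Hep3B, against 0.333% and 0.356% in control Huh7. Of the 38 genes 23 were higher and 1 lower, where 21.1% of all genes were higher and 13.3% lower, and the median log2 difference was 0.94, against 0.16 over all genes. Both Hep3B libraries were the higher in 32 genes and the lower in 4, as in 49.9% and 35.2% of all genes. CHAC1 had 94.9 and 98.2 TPM in control Hep3B, against 3.64 and 4.38 TPM in control Huh7 (log2 4.29, SE 0.22, adjusted p = 1.93e-06, limma), and NUPR1 the widest gap of the 38 (log2 6.36, SE 0.32, adjusted p = 1.59e-06, limma). GDF15 had 154 and 169 TPM in control Hep3B, against 25.1 and 23.9 TPM in control Huh7 (log2 2.67, SE 0.15, adjusted p = 3.00e-06, limma). SARS1 (log2 2.50, SE 0.22, adjusted p = 3.47e-05, limma), MTHFD2 (log2 2.03), GARS1 (log2 1.47) and DDIT4 (log2 2.27) were also among the 8 smallest adjusted p. The gene that was lower in Hep3B was ALDH1L2, a mitochondrial folate enzyme. It stood at 0.708 and 0.721 TPM in control Hep3B, against 3.15 and 3.37 TPM in control Huh7. ALDH1L2 was under 1 TPM in every Hep3B library, so it entered the test only through Huh7. FGF21, counted among the 23, was near 0 in every Huh7 library and entered only through Hep3B. The direction of these calls was thus favoured by the filter. The 5 feedback and stress genes and 7 of 8 transcription factors were higher in Hep3B, while SLC7A11, SLC6A9 and VLDLR were not called. Without the 3 A1 libraries 32 genes were called, with all 24 among them. With lenvatinib Hep3B still held 0.446% and 0.437% of TPM in these genes, above both control Huh7 libraries.

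**Figure D4:**
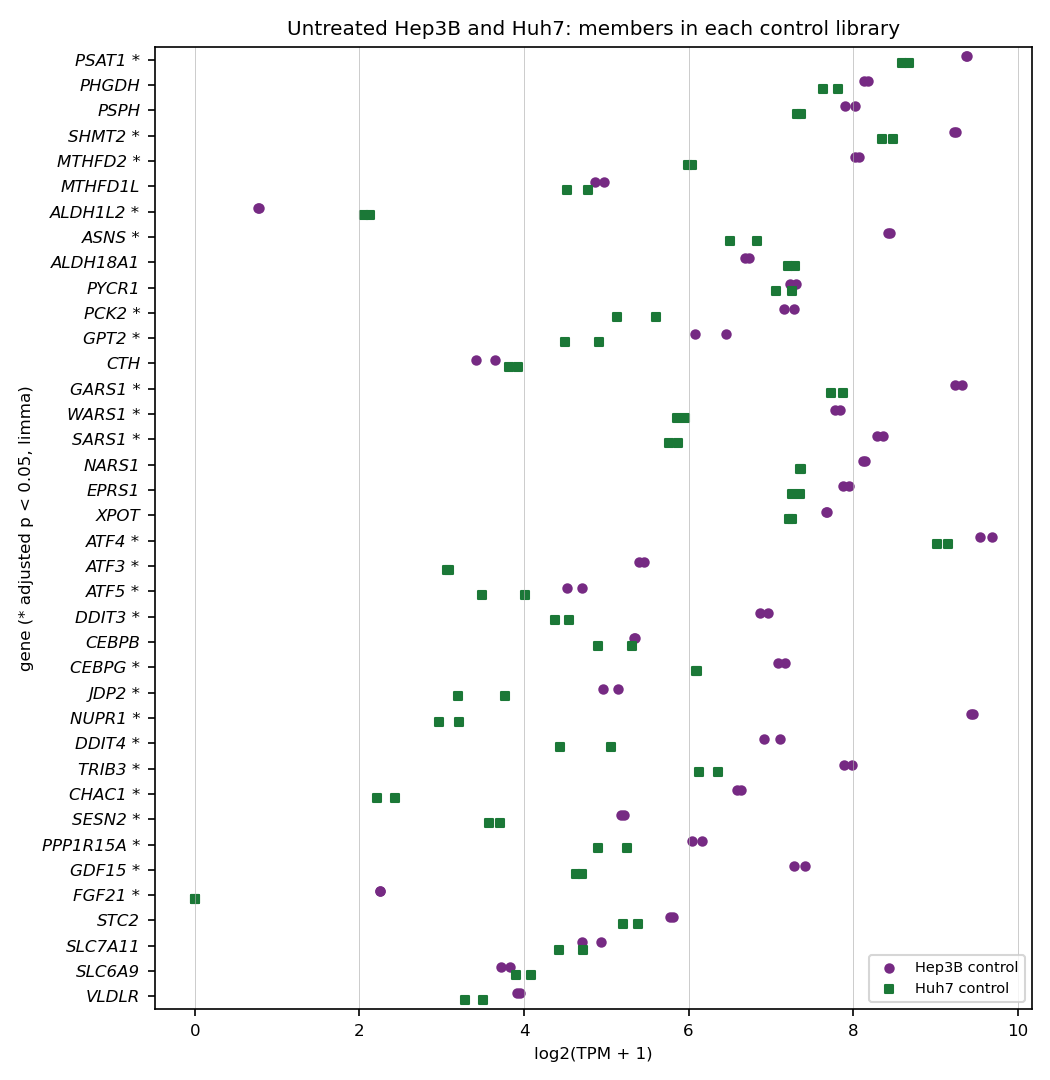
Log2(TPM + 1) of the 38 genes in both control libraries of Hep3B (circles) and of Huh7 (squares), with an asterisk where the adjusted p was under 0.05 (limma). Circles lay to the right of squares for 23 of the 24 called genes, with ALDH1L2 as the exception and NUPR1 showing the widest gap.

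Other genes around the pathway were counted by lists. Over all genes 1.38% rose and 1.1% fell with lenvatinib, 2.44% rose and 6.41% fell with the combination, and 12.3% rose and 6.63% fell in resistant Huh7, and the shares at an unadjusted p under 0.05 were 13.4% with lenvatinib, 2.87% with WWL70 and 31.9% with the combination. Of 17 genes of the eIF2 machinery (the eIF2 kinases, eIF2 and eIF2B subunits and their regulators) 0 were called with lenvatinib by limma, with 1 at an unadjusted p under 0.05, 0 with the combination, with 9 at an unadjusted p under 0.05, and in resistant Huh7 EIF2B3 and EIF2B2 fell. Of 16 tested folate and glycine genes GLDC, the glycine decarboxylase, rose with lenvatinib (80.8 TPM on average, against 48.3 TPM in control cells, adjusted p = 0.0355, limma). GLDC rose in resistant Huh7 too (141 TPM on average, against 87.5 TPM, adjusted p = 0.00987, limma), where 2 of the 16 rose and 3 fell. Of 15 tested amino acid transporters SLC1A5, a glutamine carrier, fell with lenvatinib (129 TPM on average, against 294 TPM, adjusted p = 0.00731, limma). It was among 5 that fell with the combination, and it fell in resistant Huh7 too, where 5 of the 15 rose and 2 fell. Of 19 further reported ATF4 targets NDRG1, which hypoxia also induces, rose with lenvatinib (88.3 TPM on average, against 15.4 TPM, adjusted p = 0.00731, limma) and was the 1 called. With the combination 3 of the 19 rose and 3 fell, one of them CARS1, which is also counted among the ligases, and in resistant Huh7 8 rose and 0 fell, led by CEBPD (118 TPM on average, against 19.2 TPM in control Huh7, adjusted p = 0.000188, limma). With WWL70 0 genes of these 4 lists were called by limma, with 0, 0, 2 and 1 at an unadjusted p under 0.05.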

How the data were processed

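The deposited values are TPM computed by the authors, in 1 table with 20307 Ensembl identifiers and 12 columns that each sum to 1000000. The submitters' processing notes name fastp 0.18.0 and hg38. Which aligner, annotation and quantification program were used is not given in the sources used here. Genes were named from a gene name table (19702 identifiers), then GENCODE 29 (460 more). Genes under 1 TPM in all but 1 library or in all were left out, and log2(TPM + 1) of the other 13645 was fitted with limma 3.58.1 (R 4.3.3, trended prior) as 6 group means over the 12 libraries (residual degrees of freedom 6, prior 2.91), giving 9 comparisons. Called means a Benjamini-Hochberg adjusted p under 0.05. With 2 libraries per group an exact permutation test cannot go below p = 0.333 (two-sided), so none was run. The fit was tested on simulated data.

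Members and lists were chosen with earlier results of these data known. Values in every library are given for 10 fixed members and, in most comparisons, for called ones, fold changes for at most 8 called members per comparison by adjusted p, or for the 3 smallest p where fewer than 3 passed. Other values shown for single members were chosen after they were seen. Alternatives were other pseudocounts, filters, scalings and variance models, removal of a length trend, fits on fewer libraries and the replicate letter as a block. Leaving out 3 A1 libraries together was chosen after seeing the data. The level of 1 immune marker is not reported here.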

Additional observations from a re-analysis of the deposited data

Results flagged for a closer look

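In 7 genes the resistance effect in Huh7 differed from the lenvatinib effect in Hep3B by a test of the difference itself (limma, adjusted p under 0.05, where 5.08% of all genes differed in that direction). The values are the log2 change in resistant against control Huh7 minus the log2 change with lenvatinib against control in Hep3B. GPT2 differed by 2.114 (adjusted p = 0.0114), PCK2 by 1.95 (adjusted p = 0.00496), PHGDH by 1.927 (adjusted p = 0.0279) and CHAC1 by 1.616 (adjusted p = 0.0173). JDP2 differed by 1.475 (adjusted p = 0.0469), PPP1R15A by 1.128 (adjusted p = 0.0286) and SESN2 by 1.046 (adjusted p = 0.0351). In each the resistant change was the higher one, and 0 of the 38 genes differed the other way. Of all 38 genes, 2 were called without Hep3B control A1 and 1 without B1, 2 without either lenvatinib library, 3 without either WWL70 or Huh7 control library, 3 without resistant A1 and 4 without resistant B1, while 17 were called without either combination library. Drug, exposure and cell line cannot be told apart in this difference.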

How the results depend on the processing

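No count of called genes among the 38 reversed its direction in the alternatives run, but a count of 0, or of 7 on each side, has no direction to reverse. With median-ratio scaling the median log2 change of the 38 genes changed sign in 2 comparisons. For the combination against lenvatinib it went from -0.27 to 0.03, and for the interaction from -0.09 to 0.23, with 11 genes changing sign in the interaction. The lenvatinib count (10) became 6 with median-ratio scaling, 21 with a transcript length trend removed, 30 with array weights, 4 in a fit within each cell line, 28 without the combination group, 28 without the 3 A1 libraries and 2 at an adjusted p under 0.01. The WWL70 count (0) became 3 with array weights and 1 without the 3 A1 libraries. The combination count against control (26) became 15 with median-ratio scaling, 3 with array weights, 15 within the cell line and 12 at an adjusted p under 0.01. Against WWL70 (22) these gave 10, 0, 11 and 9. Against lenvatinib (0) there was 1 without a filter on low values, 1 with the length trend removed and 1 without the 3 A1 libraries. The resistant count (14) became 9 within the cell line, 24 without the combination group, 28 without the 3 A1 libraries, 4 at an adjusted p under 0.01 and 6 with an absolute log2 change of at least 1. The count for the difference between lines (7) became 3 with median-ratio scaling, 18 with array weights, 17 without the combination group, 23 without the 3 A1 libraries and 1 at an adjusted p under 0.01. The cause of these moves was not tested, and the share of all genes called is not given here for most of these fits. Leaving out 1 library at a time gave 0 to 28 for lenvatinib, 0 for WWL70, 7 to 29 for the combination, 0 to 20 for it against lenvatinib, 2 to 29 for it against WWL70, 4 to 24 for resistance, 21 to 30 for Hep3B against Huh7, 0 to 11 for the interaction and 1 to 17 for the difference between lines, where a library left alone in its group was assumed to vary like the other groups. With the replicate letter as a block the counts were 9, 0, 26, 0, 25, 16, 25, 0 and 9, taking the combination against control, lenvatinib and WWL70 after the single compounds, then resistance, the lines, the interaction and the difference. The letters did not establish a pairing: differences between A1 and B1 correlated at 0.616 to 0.739 among the lenvatinib, combination and resistant groups and at -0.124 to 0.0671 elsewhere. TPM keeps no depth, so the counting error of low genes such as FGF21 is unknown.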
